A study of Homo sapiens with 12 samples.

Results

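The genes described here carry LINC or LOC symbols, names given to transcribed loci for which no function was known at the time of naming. They were chosen from the deposited counts as symbols made of LINC or LOC followed by digits, whose counts averaged 10 or more across the 12 libraries. The rule left 74 LINC genes of 874 in the table and 117 LOC genes of 1531, together 191 of 12032 genes that reached that mean and of 26334 symbols listed. Of the LINC symbols 460 had no count in any library and 340 had counts with a mean below 10. Among the LOC symbols these numbers were 802 and 612.

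LINC is the prefix for long intergenic noncoding RNAs, which are transcribed by RNA polymerase II, mostly spliced and polyadenylated, and not known to be translated. LOC is a placeholder formed from a gene identifier, and it can stand for a noncoding RNA, a pseudogene or a coding gene. Many such loci have since been renamed because they host microRNAs, start next to a coding gene, lie antisense to one, or encode a small protein. Actinomycin D intercalates into DNA and stops transcription, so an RNA that is no longer made declines at the pace of its degradation.

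RNA was taken from cells labelled shA673-1c, a line of the Ewing sarcoma cell line A673, grown in DMEM with serum, blasticidin and zeocin. All cells received 5 µM actinomycin D, and the groups were 0, 1, 2 and 4 h of treatment with 3 replicates each, described as biological replicates seeded in 6-well plates, so that all 12 libraries come from 1 line. Poly(A)-selected, stranded libraries were sequenced, and their totals ranged from 9147018 to 11194705 counts. The short-lived transcripts of MYC, JUN and IER2 fell, with slopes of -1.12, -0.89 and -0.84 log2 units per h. Of 8 Ewing sarcoma marker genes summed, between 4360 and 5020 CPM (counts scaled to a library of 1000000) were found per library, nearly all from CAV1 and CCND1. NKX2-2 lay between 0.756 and 8.1 CPM and NR0B1 between 7.45 and 44.7 CPM, and CD99 was listed at 0 in all libraries, for which no reason was tested. Of 5 endothelial markers, the sum lay between 0.186 and 1.29 CPM. Of 3 immune markers it lay between 9.31 and 14.2 CPM, nearly all from CD68, while PTPRC had at most 3 counts in a library and CD3E none.

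The label of intergenic noncoding RNA did not hold for every member. In the RefSeq table for GRCh38.p14, all 74 LINC genes were found, 23 of them under a new symbol, and 66 were typed as lncRNA and 8 as protein coding. Of the LOC genes 112 were found, 78 through their gene ID, and 81 were typed as lncRNA, 25 as transcribed pseudogenes and 6 as protein coding. In GENCODE version 44, 12 LINC and 31 LOC genes overlapped a coding gene on the other strand only, and 7 LINC and 7 LOC genes overlapped a coding gene on their own strand. Since the strand setting of the counting is not given in the sources used here, reads of such members and of their overlapping partners cannot be told apart.

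The sequences shown here belong to members that fell after the block. LOC284454 is now called MIR23AHG, and its primary transcript carries the precursors of 3 microRNAs at chr19:13823880-13842928 on the minus strand of GRCh38. LINC00461, now MIR9-2HG, spans chr5:88507546-88691057 on the minus strand and carries 1 of the precursors of miR-9, as LINC00925 (MIR9-3HG) does on chromosome 15. The mature sequences from RefSeq follow from 5′ to 3′, with the seed, bases 2 to 8, in capitals. MicroRNAs themselves were not measured in these poly(A) libraries.
hsa-miR-23a-3p: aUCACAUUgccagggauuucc
hsa-miR-27a-3p: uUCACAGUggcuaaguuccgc
hsa-miR-24-3p: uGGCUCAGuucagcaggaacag
hsa-miR-9-5p: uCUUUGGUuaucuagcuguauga
The 4 seeds differ from each other. The copies of miR-9-5p in LINC00461 and in LINC00925 have the same mature sequence.

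Most LINC and LOC genes showed no change that passed the test over 4 h. A straight line in time was fitted to the counts of each gene with edgeR's quasi-likelihood method after TMM scaling, which sets levels relative to the bulk of genes, and the slope is given in log2 units per h. This main fit had no term for the replicate number. A gene is said to have fallen or risen where its adjusted p (Benjamini-Hochberg over all 12032 genes) was below 0.05. Of all tested genes 62.8% passed, 32.1% falling and 30.7% rising. Of the 74 LINC genes 11 fell, 10 rose and 53 did not pass, which is 28.4% called. Of the 117 LOC genes 24 fell, 19 rose and 74 did not pass, which is 36.8% called. The median slope was 0.0130 for LINC genes, -0.0008 for LOC genes and 0.0093 for all tested genes. Slopes of LINC genes ran from -0.63 to 0.34 and those of LOC genes from -0.89 to 0.30.

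The members had few counts, and the share called moved with the count level. The median member had a mean of 31.7 counts among LINC genes and 26.2 among LOC genes, against 303.8 over all tested genes, and 48.6% of LINC and 53.0% of LOC genes had a mean below 30 counts, against 11% of all tested genes. Where counts averaged 100 or more, 69.6% of all tested genes passed the slope test, compared with 8 of 16 LINC genes (50%) and 12 of 16 LOC genes (75%). Below 100 counts these shares were 43.6% of all tested genes, 13 of 58 LINC genes (22.4%) and 31 of 101 LOC genes (30.7%). The part of count level in the low share of calls was not tested. For 5 LINC and 20 LOC genes the mean was below 10 counts at 1 or more of the times, so these were kept through the times at which they were higher, and 2 of these LINC and 7 of these LOC genes are among those that fell, with 1 and 2 among those that rose.

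**Figure D1:**
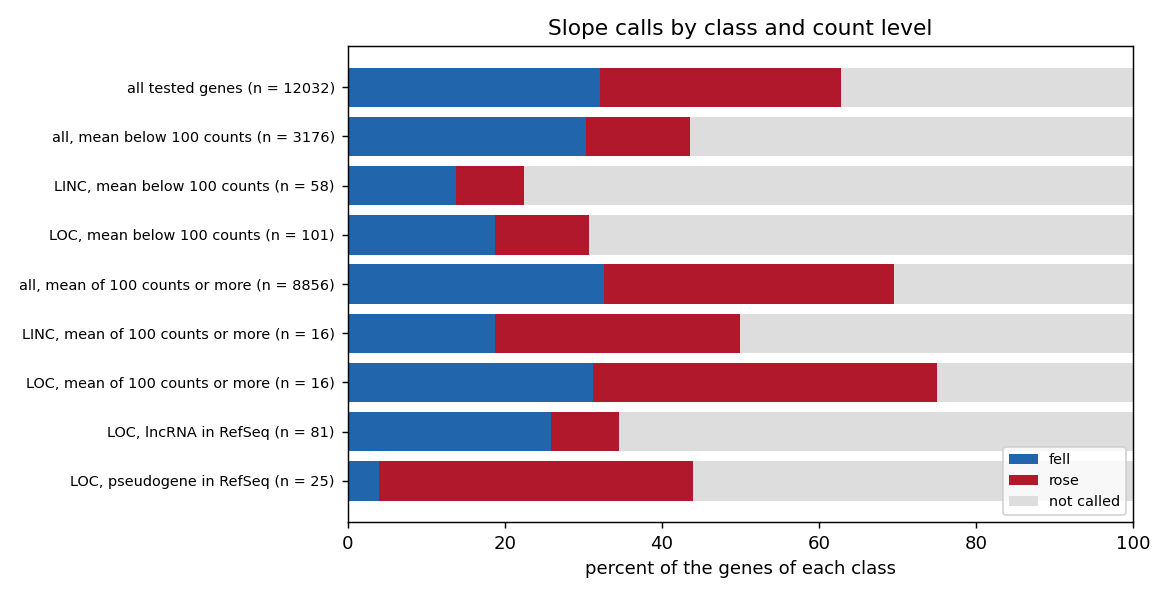
Percent of genes that fell (blue), rose (red) or did not pass the slope test (grey) in each class, with the number of genes in parentheses. LINC genes below 100 counts were called in 22.4% and those with 100 counts or more in 50%, against 43.6% and 69.6% of all tested genes at these levels.

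The counts of called members changed when a replicate was left out. Shares of all tested genes were not counted with a replicate left out or under any other alternative setting given below. How far the smaller number of libraries lowered the counts was not tested. Without replicate 2, that is without 1 library at each time, 7 LINC and 15 LOC genes fell and 7 and 8 rose, and LOC genes that rose numbered 11 without replicate 1 and 12 without replicate 3. Scaling to GAPDH plus ACTB, which themselves rose relative to the bulk with slopes of 0.15 and 0.12, shifted the median slope of all tested genes by -0.14 per h, and 31 LINC and 52 LOC genes then fell and 2 and 2 rose. Directions and half-lives below are therefore relative to the bulk of genes.

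LINC00657, now called NORAD, is a cytoplasmic noncoding RNA that is induced by DNA damage, and it lies at chr20:36045618-36051018 on the minus strand of GRCh38 as a single exon of 5401 bases. It had the most counts of all members and fell to about 49.0% of its starting level. It stood at 317, 314 and 307 CPM at 0 h in replicates 1 to 3, at 266, 283 and 259 CPM at 1 h, at 232, 249 and 253 CPM at 2 h, and at 140, 157 and 162 CPM at 4 h. Every library at 4 h lay below every library at 2 h, and the 0 h libraries lay above all others. The slope was -0.26 ± 0.02 (SE; adjusted p = 1.13e-08), which gives a half-life of 3.92 h (95% interval from the SE 3.43 to 4.57 h), or 2.55 h with GAPDH plus ACTB scaling. With the replicate number as a block NORAD departed from a straight line (adjusted p = 0.00475), and its slope was -0.17 over 0, 1 and 2 h and -0.28 over 1, 2 and 4 h, so this half-life averages over the course. The 74 LINC genes together took 0.0858 to 0.0879% of counts at 0 h and 0.0649 to 0.0678% at 4 h, with no overlap, and most of that loss was that of NORAD. Without it the others took 0.0536 to 0.0553% at 0 h and 0.0519 to 0.0524% at 4 h, while on the TMM scale their sum went up, from 515.2 to 536.4 CPM at 0 h to 542.2 to 567.7 CPM at 4 h. The 117 LOC genes took 0.0661 to 0.0721% at 0 h and 0.0584 to 0.0637% at 4 h.

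MIR23AHG (LOC284454), the host of miR-23a, miR-27a and miR-24-2, had the steepest slope of all members. It stood at 12.3, 11.9 and 11.6 CPM at 0 h, at 3.35, 1.77 and 2.81 CPM at 1 h, at 2.09, 0.709 and 1.74 CPM at 2 h, and at 1.303, 1.94 and 1.01 CPM at 4 h. Most of the loss was complete at 1 h, and the libraries at 1, 2 and 4 h all lay far below those at 0 h. The slope was -0.89 ± 0.14 (SE; adjusted p = 3.61e-05), with a half-life of 1.12 h (95% interval 0.856 to 1.62 h), and 11.9% was left at 4 h. The course was not a straight line, so this half-life averages over a fast and a level stretch. In the main fit, without a replicate block, it was the only member to pass the test of departure from a straight line (adjusted p = 0.00755), which 2.7% of all tested genes passed. At an unadjusted p below 0.05, 4 LINC and 4 LOC genes departed from a line. The share of all tested genes at that unadjusted level was not counted, so these are not read as further departures. The call of MIR23AHG was lost without replicate 1 (adjusted p = 0.181) or replicate 2 (0.180). MIR23AHG overlaps ZSWIM4, which codes for a zinc finger protein on the other strand and had a slope of -0.09 ± 0.04 (adjusted p = 0.0940).

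The 2 hosts of miR-9 had flatter courses than MIR23AHG, a difference that was not tested. LINC00461 (MIR9-2HG) stood at 2.95, 3.47 and 3.73 CPM at 0 h and at 1.303, 1.16 and 2.35 CPM at 4 h, and it fell with a slope of -0.28 ± 0.07 (adjusted p = 0.00383; 0.0661 without replicate 2). Its 0 h and 4 h libraries did not overlap. LINC00925 (MIR9-3HG) had 1.77, 2.12 and 2.40 CPM at 0 h and 1.42, 1.06 and 1.91 CPM at 4 h, with overlapping groups and a slope of -0.14 ± 0.07 that did not pass (adjusted p = 0.105). Of the other members spanning a microRNA precursor on their strand, CYTOR (LINC00152), a noncoding RNA named for its link to the cytoskeleton, had a slope of 0.04 ± 0.05 (adjusted p = 0.517), and MIR924HG (LINC00669) had a slope of 0.03 (adjusted p = 0.727).

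Among the other LINC genes that fell, LINC00847 and LINC01004 had the steepest slopes. LINC00847, at chr5:180830326-180839742, stood at 4.92, 5.98 and 4.00 CPM at 0 h, at 4.41, 3.63 and 3.90 CPM at 1 h, at 3.38, 2.53 and 2.61 CPM at 2 h, and at 1.78, 1.36 and 0.560 CPM at 4 h. Its mean declined at each step, with a slope of -0.49 ± 0.07 (adjusted p = 1.18e-05) and a half-life of 2.04 h (95% interval 1.60 to 2.82 h). LINC01004, whose counts lay between 24 and 35 at 0 h and between 3 and 9 at 4 h, stood at 3.34, 2.31 and 3.11 CPM at 0 h, at 0.383, 0.589 and 1.09 CPM at 1 h, at 0.497, 0.405 and 0.968 CPM at 2 h, and at 0.356, 0.871 and 0.672 CPM at 4 h. The 0 h libraries lay apart from the other 9, which overlapped each other. Its slope was -0.63 ± 0.15 (adjusted p = 0.00186), and over 1, 2 and 4 h alone it was -0.03 (adjusted p = 0.892). Its mean was 31.0 counts at 0 h and below 10 at each later time. LINC01004 was thus kept through its 0 h level alone and had to differ from it. LINC01004 lies antisense to KMT2E, a histone methyltransferase family gene that also fell (slope -0.52 ± 0.04).

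LINC00189, LINC00909 and LINC00938 fell more slowly. LINC00189, which overlaps the transcription factor gene BACH1 on the same strand, had 2.06, 1.25 and 1.78 CPM at 0 h and 0.474, 0.774 and 0.448 CPM at 4 h, with a slope of -0.37 ± 0.08 (adjusted p = 0.00122). Its mean was below 10 counts at 4 h, so LINC00189 was kept through its earlier, higher levels. BACH1 had a slope of -0.42 ± 0.03, and reads of both loci cannot be told apart where they share exons. LINC00909 (ZNF407-AS1) went from 4.42, 5.69 and 4.80 CPM to 2.61, 2.52 and 2.69 CPM, with a slope of -0.24 ± 0.05 (adjusted p = 0.000544) and a half-life of 4.17 h, while ZNF407 on the other strand had a slope of -0.56 ± 0.06. LINC00938, a single-exon RNA, went from 10.03, 10.03 and 10.4 CPM to 5.21, 6.39 and 5.94 CPM, with a slope of -0.20 ± 0.04 (adjusted p = 0.000123). LINC01085, LINC00339 and LINC00294 fell with slopes of -0.20, -0.19 and -0.10, and all 3 lost the call without replicate 2, and the last of the 11, LINC00493 (SMIM26), is described with the small proteins. LINC01004, kept through its 0 h level, gave the shortest half-life, 1.59 h, although its slope over 1, 2 and 4 h was -0.03. Half-lives of the 11 LINC genes that fell ran from 1.59 to 13.6 h with a median of 4.17 h, and 8 of them were under 5 h. With GAPDH plus ACTB scaling they ran from 1.33 to 4.74 h with a median of 2.66 h, and 7 of the 11 were shorter by more than 1.5 times.

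Of the LOC genes that fell, EMSLR and ZNF225-AS1 followed MIR23AHG. LOC101927746, now EMSLR, a noncoding RNA named for stabilising the messenger RNA of the cell cycle factor E2F1, stood at 5.41, 5.21 and 4.97 CPM at 0 h, at 3.93, 5.50 and 2.91 CPM at 1 h, at 1.79, 2.02 and 1.55 CPM at 2 h, and at 1.19, 0.581 and 0.560 CPM at 4 h. The 1 h libraries overlapped those at 0 h, and the later ones did not. Its slope was -0.72 ± 0.08 (adjusted p = 8.20e-07), with a half-life of 1.39 h (95% interval 1.15 to 1.78 h). The mean of EMSLR was below 10 counts at 4 h, so it was kept through its earlier, higher levels. LOC100379224, now ZNF225-AS1, went from 13.8, 10.7 and 13.2 CPM at 0 h through 10.3, 8.64 and 10.2 CPM at 1 h and 6.76, 6.38 and 7.84 CPM at 2 h to 2.73, 3.10 and 2.58 CPM at 4 h. No library at a later time reached any at an earlier one, and the slope was -0.53 ± 0.04 (adjusted p = 3.14e-08), a half-life of 1.89 h (95% interval 1.64 to 2.25 h). Under all 12 alternative settings the slopes of EMSLR and ZNF225-AS1 stayed negative and passed the test.

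The next LOC genes by slope are noncoding RNAs with few counts. LOC100506688 (LINC02982) had 2.56, 2.51 and 2.67 CPM at 0 h and 0.592, 0.581 and 1.01 CPM at 4 h, with a slope of -0.49 ± 0.08 (adjusted p = 8.29e-05). LOC102724434 had 3.83, 3.76 and 2.93 CPM at 0 h and 1.07, 0.484 and 1.46 CPM at 4 h, with a slope of -0.43 ± 0.09 (adjusted p = 0.000467). LOC101927045 had 2.46, 2.41 and 3.38 CPM at 0 h and 1.07, 1.16 and 0.896 CPM at 4 h, with a slope of -0.36 ± 0.07 (adjusted p = 0.000394). In all 3 the 4 h libraries lay below the 0 h libraries without overlap, with between 5 and 13 counts at 4 h. Their means were below 10 counts at 4 h, so they were kept through their earlier, higher levels. Half-lives of the 24 LOC genes that fell ran from 1.12 to 11.3 h with a median of 4.28 h, and 15 were under 5 h. The median over all tested genes that fell was 4.35 h. Below 100 counts the median was 3.99 h for 19 LOC genes, 3.88 h for 8 LINC genes and 2.85 h for all tested genes that fell. At 100 counts or more it was 9.74 h for 5 LOC genes, 10.5 h for 3 LINC genes and 5.2 h for all tested genes that fell. These differences were not tested. With GAPDH plus ACTB scaling the 24 LOC genes ran from 0.992 to 4.42 h with a median of 2.71 h.

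**Figure D2:**
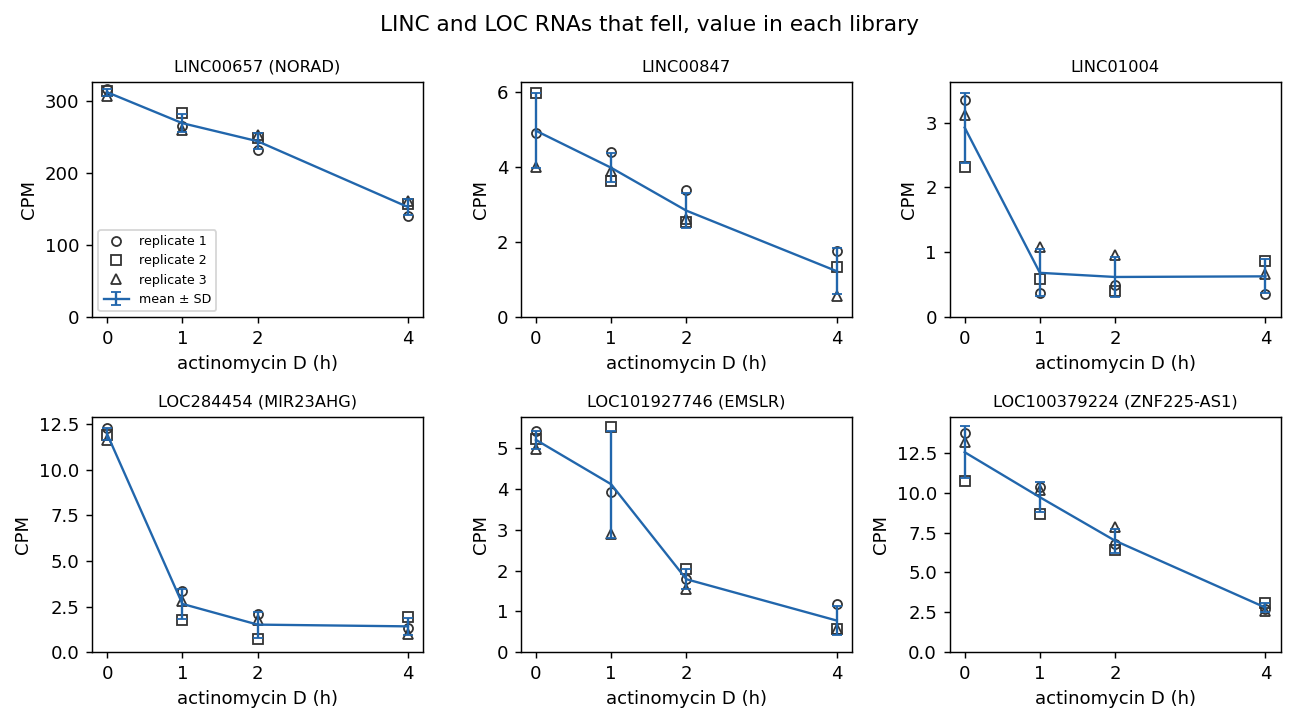
CPM in each library (open symbols, 1 per replicate) with the mean and SD of 3 replicates (line) at 0, 1, 2 and 4 h of actinomycin D for 6 members that fell, each panel on its own axis from 0. NORAD, LINC00847 and ZNF225-AS1 declined step by step, whereas LINC01004 and MIR23AHG were low from 1 h on.

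At 1 h, LINC01004 and MIR23AHG were the only members called lower than at 0 h in the main edgeR fit, and none was called higher. At an unadjusted p below 0.05, 6 LINC and 9 LOC genes were lower and 2 and 6 higher. The share of all tested genes at that unadjusted level was not counted, so these are not read as further changes. DESeq2 called 2 LINC genes and 1 LOC gene lower and 0 higher. By adjusted p in edgeR, 2.58% of all tested genes were called at 1 h, 2.24% lower and 0.349% higher. LINC01004 was lower by 2.06 ± 0.37 log2 units (adjusted p = 0.00768) and MIR23AHG by 2.16 ± 0.26 (adjusted p = 0.000509). LINC01004 averaged 31.0 counts at 0 h and 7.33, 6.33 and 6.0 counts at 1, 2 and 4 h, so it reached the mean of 10 through its 0 h level alone and had to differ from it. MIR23AHG averaged over 10 counts at every time. Leaving out replicate 1 or 2 took the call from LINC01004 (adjusted p = 0.207 and 0.186), and leaving out replicate 2 took it from MIR23AHG (0.0598). For the blocked fit and for DESeq2 the share of all tested genes was not counted. With the replicate number as a block, 5 LINC and 9 LOC genes were lower and 4 LOC genes higher. These included NORAD, lower by 0.21 (adjusted p = 0.000173), and CHASERR (LINC01578), lower by 0.38 (0.000177). The blocked fit also called 4 LINC and 3 LOC genes as departing from a straight line, among them CHASERR (adjusted p = 0.000633) and NORAD.

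CHASERR, a noncoding RNA that lies upstream of the chromatin remodeller gene CHD2 and restrains it, stood at 38.8, 43.7 and 42.0 CPM at 0 h, at 29.98, 31.6 and 34.1 CPM at 1 h, at 31.6, 39.2 and 37.3 CPM at 2 h, and at 34.8, 42.2 and 35.9 CPM at 4 h. The 1 h libraries were the lowest as a group and did not overlap those at 0 h, and the 4 h libraries overlapped them. Over the whole course its slope was -0.01 ± 0.03 (adjusted p = 0.754). CHD2, which overlaps it on the same strand in GENCODE, fell with a slope of -0.24 ± 0.02.

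At 4 h, 11 LINC genes were lower and 10 higher than at 0 h, and 23 LOC genes were lower and 14 higher, against 60.2% of all tested genes called, 31.6% lower and 28.7% higher. With the block 16 LINC and 22 LOC genes were higher, and without replicate 2 the numbers were 5 and 7. The 4 h, 1 h and slope results share the same 0 h libraries.

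Among the LINC genes that rose, LINC00926 and LINC00174 had the steepest slopes, and both also rose with GAPDH plus ACTB scaling. LINC00926 stood at 1.97, 0.579 and 0.977 CPM at 0 h, at 1.72, 1.87 and 1.54 CPM at 1 h, at 2.38, 2.43 and 3.10 CPM at 2 h, and at 2.37, 3.39 and 3.92 CPM at 4 h, with between 6 and 20 counts at 0 h. The 4 h libraries all lay above the 0 h libraries, and the slope was 0.34 ± 0.08 (adjusted p = 0.00113). LINC00174, a transcript with 23 exons in GENCODE, went from 2.65, 1.83 and 1.51 CPM at 0 h to 5.92, 3.97 and 4.93 CPM at 4 h, with a slope of 0.30 ± 0.06 (adjusted p = 0.000251). LINC00951 went from 1.67, 2.12 and 1.69 to 3.32, 3.68 and 3.25 CPM (slope 0.21 ± 0.06, adjusted p = 0.00522). LINC00265 went from 5.21, 2.99 and 5.77 to 8.65, 8.13 and 6.72 CPM (slope 0.19 ± 0.05, adjusted p = 0.00472; 0.0776 without replicate 2). LINC00641 went from 17.5, 16.3 and 15.2 to 26.9, 28.7 and 21.1 CPM (slope 0.16 ± 0.03, adjusted p = 0.000604), and LINC01278 rose with a slope of 0.10, a call lost without replicate 1 or 2 and with library totals. None of LINC00951, LINC00265, LINC00641 and LINC01278 passed with GAPDH plus ACTB scaling.

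Among the LOC genes that rose, AP1G2-AS1 and LOC642846 also rose with GAPDH plus ACTB scaling. LOC102724814, now AP1G2-AS1, stood at 1.77, 2.22 and 3.11 CPM at 0 h, at 3.26, 3.53 and 4.90 CPM at 1 h, at 3.48, 4.66 and 4.26 CPM at 2 h, and at 5.69, 6.10 and 6.72 CPM at 4 h. The 0 h libraries lay below all others and the 4 h libraries above, with a slope of 0.30 ± 0.06 (adjusted p = 0.000158). AP1G2, an adaptor subunit gene for vesicle transport on the other strand, also rose (slope 0.14 ± 0.04). LOC642846, a noncoding RNA in RefSeq on chromosome 12, went from 5.70, 5.02 and 5.51 CPM at 0 h to 12.4, 10.7 and 10.98 CPM at 4 h, with a slope of 0.26 ± 0.04 (adjusted p = 2.24e-05). Its 4 h libraries were the highest of all 12.

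The remaining LOC genes named by rule among those that rose had fewer counts. LOC103611081, without a RefSeq match, went from 2.26, 1.35 and 2.22 to 4.03, 3.97 and 3.14 CPM (slope 0.24 ± 0.06, adjusted p = 0.00116). LOC100506124 went from 1.08, 0.675 and 0.977 to 1.303, 1.84 and 2.46 CPM (slope 0.26 ± 0.09, adjusted p = 0.0151; 0.135 without replicate 2). LOC100506472 went from 0.590, 0.868 and 0.178 to 1.19, 1.45 and 2.02 CPM (slope 0.26 ± 0.10, adjusted p = 0.0367). The call for LOC100506472 was lost without any 1 of the 3 replicates (adjusted p = 0.0722, 0.0952 and 0.181), and its 0 h libraries had between 2 and 9 counts. Both LOC100506124 and LOC100506472 had means below 10 counts at 0 h, so they were kept through their later, higher levels.

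**Figure D3:**
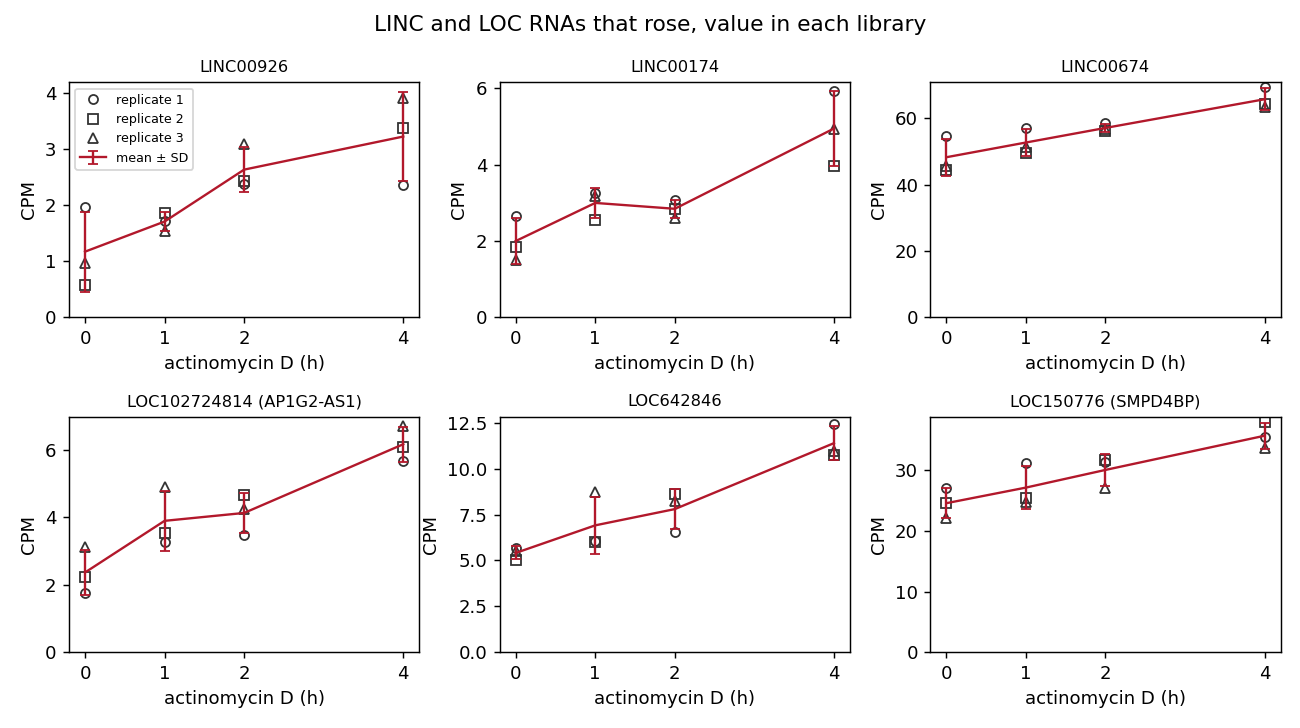
CPM in each library (open symbols, 1 per replicate) with the mean and SD of 3 replicates (line) at 0, 1, 2 and 4 h for 6 members that rose relative to the bulk of genes, each panel on its own axis from 0. LINC00674 and SMPD4BP did not rise when scaled to GAPDH plus ACTB, where their slopes were -0.03 and -0.002.

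A chosen list of 15 LINC symbols, many with an assigned protein or a later name, was followed, and 10 of them are members. It does not hold every renamed member. LINC00961, LINC00511 and LINC00662 had means of 1.67, 0 and 0.833 counts, and the other 2 symbols were not found in the table. Of the 10 members, NORAD, LINC00847 and SMIM26 fell, and NBDY and LINC00665 rose. NBDY (LINC01420), which encodes a small protein of processing bodies that takes part in decapping of messenger RNA, stood at 12.6, 17.9 and 18.4 CPM at 0 h, at 15.8, 18.2 and 16.9 CPM at 1 h, at 18.7, 19.9 and 26.1 CPM at 2 h, and at 22.9, 23.3 and 26.2 CPM at 4 h. The 4 h libraries lay above those at 0 h, with a slope of 0.15 ± 0.04 (adjusted p = 0.00177). With GAPDH plus ACTB scaling NBDY no longer passed.

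The transcripts of 3 small membrane proteins changed little relative to the bulk of genes. SMIM26 (LINC00493), a mitochondrial protein, went from 17.3, 16.1 and 16.2 to 13.2, 14.04 and 12.7 CPM without overlap, with a slope of -0.07 ± 0.03 (adjusted p = 0.0192), and it lost the call without replicate 1 (adjusted p = 0.129) or 3 (0.0918). MTLN (LINC00116), also mitochondrial, had 5.21, 4.34 and 3.91 CPM at 0 h and 3.79, 4.74 and 3.47 CPM at 4 h, with overlap and a slope of -0.03 ± 0.04 (adjusted p = 0.538). SMIM30 (LINC00998), a membrane protein, had 37.6, 45.4 and 43.97 CPM at 0 h and 38.9, 42.5 and 44.2 CPM at 4 h, with a slope of 0.01 ± 0.02 (adjusted p = 0.726). These 3 transcripts thus ended between 80.4 and 98.9% of their starting level, while NBDY ended at 148.0%. With GAPDH plus ACTB scaling SMIM26, MTLN and SMIM30 had slopes of -0.21, -0.17 and -0.13, all past the threshold.

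Of the rest of that list, BRD3OS (LINC00094), named for its place opposite the bromodomain gene BRD3, had a slope of 0.05 ± 0.03 (adjusted p = 0.140), CYTOR is given above, and LINC00467 had a slope of 0.08 ± 0.06 (adjusted p = 0.265). LINC00665 went from 10.7, 12.2 and 11.9 to 14.2, 14.5 and 14.3 CPM without overlap, with a slope of 0.06 ± 0.03 (adjusted p = 0.0480). That call was lost without any 1 replicate (adjusted p from 0.0661 to 0.224), and the direction reversed with GAPDH plus ACTB scaling. With that scaling BRD3OS had a slope of -0.09, past the threshold.

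The members with the most counts after NORAD had small errors. LINC00674, at chr17:68101908-68114527, is typed as lncRNA in RefSeq but as a transcribed unprocessed pseudogene in GENCODE. It had 54.7, 44.4 and 45.7 CPM at 0 h and 69.4, 64.2 and 63.4 CPM at 4 h, and it rose with a slope of 0.11 ± 0.02 (adjusted p = 0.000109). LINC01116, on chromosome 2, had 31.1, 34.5 and 30.6 CPM at 0 h and 32.1, 34.1 and 27.9 CPM at 4 h, overlapping at a slope of 0.002 ± 0.027 (adjusted p = 0.962). LOC100129034 had the most counts of the LOC genes, with 67.3, 53.4 and 55.7 CPM at 0 h and 68.0, 67.4 and 64.4 CPM at 4 h, and although these overlapped its slope of 0.04 ± 0.02 passed narrowly (adjusted p = 0.0494). It was lost without replicate 2 (0.266) or 3 (0.212) and turned to -0.09 with GAPDH plus ACTB scaling (adjusted p = 0.000855). LOC90784 had 42.4, 34.8 and 32.8 CPM at 0 h and 33.5, 32.9 and 26.3 CPM at 4 h, with a slope of -0.05 ± 0.03 that did not pass (adjusted p = 0.192) but did with the block (0.0260), with library totals (0.0216) and with GAPDH plus ACTB scaling (slope -0.19, 1.15e-05).

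By RefSeq type, LOC genes typed as lncRNA and as pseudogenes had different splits of calls. Of the 81 LOC lncRNAs 21 fell and 7 rose (25.9 and 8.64%), with a median slope of -0.0170. Of the 25 LOC transcribed pseudogenes 1 fell and 10 rose (4 and 40%), with a median of 0.0949. Against the background of 32.1% falling and 30.7% rising, both shares of the LOC lncRNAs were lower, the rising share by more. For the pseudogenes the falling share was lower and the rising share higher. Both types had few counts, with medians of 23.3 for the LOC lncRNAs and 37.1 for the pseudogenes. Of all tested genes with a mean below 100 counts, 30.3% fell and 13.3% rose. Without replicate 2 the pseudogenes that rose numbered 5, without replicate 1 or 3 they numbered 6, and with GAPDH plus ACTB scaling 6 fell and none rose. Of the 66 LINC lncRNAs 10 fell and 8 rose. The difference between these types was not tested.

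Pseudogenes can share reads with the gene they were copied from, and how the counting treated such reads is not given in the sources used here. This also holds for LINC00674 and LINC01085, which GENCODE types as transcribed pseudogenes. For 15 LOC pseudogenes the RefSeq symbol names a parent. Of these pairs 12 have a tested parent, of which 7 rose and 3 fell, where 30.7% of all tested genes rose and 32.1% fell. SMPD4BP (LOC150776), a copy of the sphingomyelinase gene SMPD4, stood at 27.0, 24.5 and 22.1 CPM at 0 h, at 31.1, 25.4 and 24.8 CPM at 1 h, at 31.4, 31.7 and 27.0 CPM at 2 h, and at 35.4, 37.9 and 33.6 CPM at 4 h. Its 4 h libraries were above all others, with a slope of 0.13 ± 0.03 (adjusted p = 0.000186), and SMPD4 had a slope of 0.05 ± 0.02 (adjusted p = 0.0169). SEPTIN7P14 (LOC645513) had a slope of 0.17 and its parent, the septin cytoskeleton gene SEPT7, one of 0.09 (adjusted p = 9.99e-05), and the call of the pseudogene was lost without replicate 1. SIMC1P1 (LOC202181) rose with a slope of 0.21 (adjusted p = 0.0496), whereas SIMC1 fell with -0.19 (2.86e-05). The call of SIMC1P1 was lost without replicate 2 or 3, with library totals, with DESeq2 and with every gene that had a count. LSP1P4 (LOC654342) and LSP1P5 (LOC645166) rose with slopes of 0.14 and 0.13, although LSP1, an actin-binding protein of white blood cells, had a mean of only 4.8 counts and was not tested. Both lost the call without replicate 2. LOC100288637, a pseudogene for which no parent was assigned, had 14.7, 13.6 and 15.9 CPM at 0 h and 21.4, 21.7 and 21.9 CPM at 4 h, all above every earlier library, with a slope of 0.15 ± 0.03 (adjusted p = 0.000888). The pseudogene with the most counts, RNF4BP (LOC100419583), had 37.0, 41.8 and 44.5 CPM at 0 h and 32.7, 27.2 and 37.7 CPM at 4 h, which overlapped, and it fell with a slope of -0.09 ± 0.03 (adjusted p = 0.0103; 0.168 without replicate 2).

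Most pairs of a member and a neighbouring coding gene were not both called. For each member 1 overlapping coding gene was taken, the first listed, with genes on the same strand before others. Further overlapping coding genes were not looked at. There were 34 pairs of a member and a tested coding gene overlapped on the other strand. In these pairs 10 members fell and 3 rose, and of the 10 members that fell 3 had a partner that fell and 7 a partner that did not, where 32.1% of all tested genes fell. In 4 of the 34 pairs both moved in the same direction, and in 2 they moved in opposite directions. MIR23AHG, EMSLR and ZNF225-AS1 are among the 7, and their partners ZSWIM4, IFT22 and ZNF224 had slopes of -0.09, 0.06 and 0.02. MCPH1-DT (LOC100287015) fell with a slope of -0.25, a call lost without replicate 3, and MCPH1, a DNA damage response gene, fell with -0.53. NBDY rose whereas SPIN3, a histone reader gene on the other strand, fell (slope -0.24, adjusted p = 0.000560).

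In 19 pairs the member started within 1000 bases of a tested coding gene on the other strand, head to head. Of these members 4 fell and 2 rose, and of the coding genes 5 fell and 5 rose, with 3 pairs moving in the same direction and 2 in opposite directions. Of all tested genes 32.1% fell and 30.7% rose, so the calls of the coding genes lay near the background. ISL1-DT (LOC642366) fell with a slope of -0.22 (adjusted p = 0.0116), and ISL1, a homeobox transcription factor, fell with -0.73 (2.51e-07). The call of ISL1-DT was lost without replicate 1 or 3. MRPL20-AS1 (LOC148413) went from 7.28, 7.52 and 7.11 to 3.67, 2.42 and 4.59 CPM, with a slope of -0.27 ± 0.05 (adjusted p = 0.000151), whereas CCNL2, the cyclin L2 gene starting 180 bases away, rose with a slope of 0.17 ± 0.02. LINC00205 (LOC642852) went from 27.5, 29.1 and 31.1 to 19.6, 17.7 and 21.6 CPM, with a slope of -0.15 ± 0.03 (adjusted p = 0.000557), whereas POFUT2, a protein fucosyltransferase gene, rose with 0.10 ± 0.02. C2orf92 (LINC01125) went from 0.885, 0.965 and 0.711 to 1.42, 1.94 and 2.02 CPM and rose with 0.26 ± 0.06 (adjusted p = 0.00200), as did ACTR1B, a dynactin subunit gene, with 0.14 ± 0.02. With GAPDH plus ACTB scaling C2orf92 did not pass. Its mean was below 10 counts at 0 h, so it was kept through its later, higher levels.

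**Figure D4:**
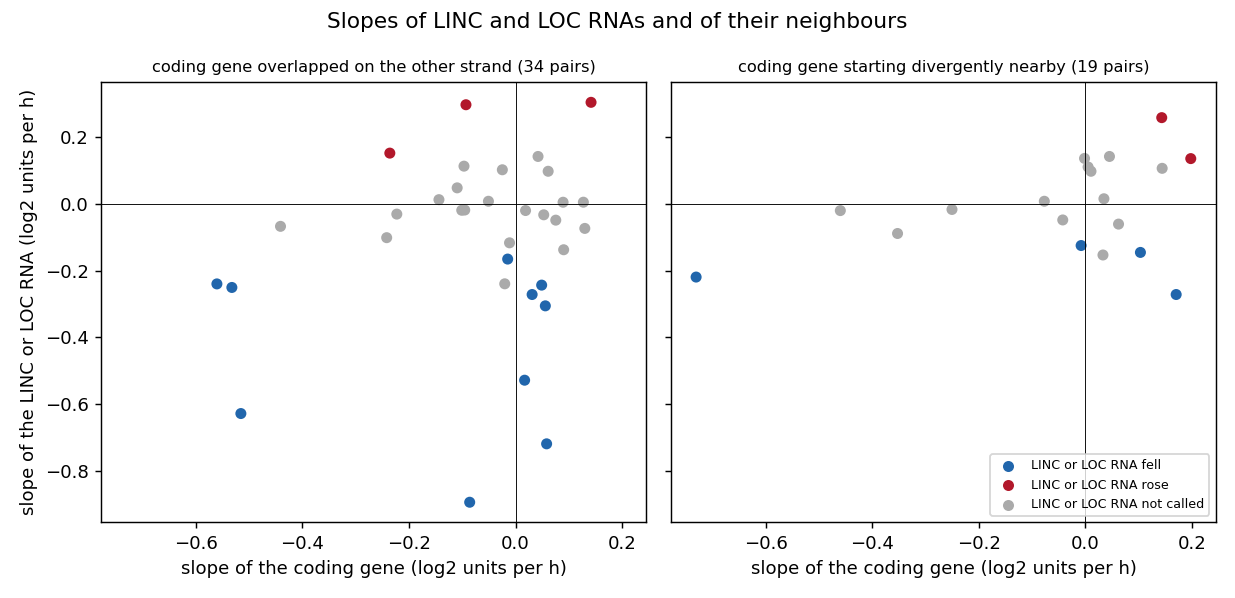
Slope of each LINC or LOC RNA against the slope of a coding gene that it overlaps on the other strand (left, 34 pairs) or that starts head to head with it (right, 19 pairs), in log2 units per h. Points are coloured by the call of the LINC or LOC RNA, and in the left panel 7 of the 10 that fell (blue) had a partner that did not fall, where 32.1% of all tested genes fell.

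By name, 17 members now end in -DT, for divergent transcript, of which 5 fell and none rose. Of 21 ending in -AS and a number 3 fell and 1 rose, and of 5 ending in HG, for host gene, 2 fell and none rose. By structure, 15 members had 1 exon in their GENCODE transcript, of which 6 fell (40%) and none rose, with a median slope of -0.09. Of the 113 with 2 or more exons 19 fell and 16 rose (16.8 and 14.2%), with a median slope of 0.007. The 1-exon members that fell were NORAD, MIR23AHG, LINC00294, LINC00938, LINC01085 and ISL1-DT, and 4 of these calls were left without replicate 2 or 3. Of all tested genes 32.1% fell and 30.7% rose, so the falling shares of the -DT and 1-exon members lay near the background. These groups were formed after the values had been seen.

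Promoters of the members were searched for chosen letters, and differences from other genes were not tested. RefSeq windows from 250 bases before to 50 after the start were found for 56 LINC and 67 LOC genes and for 27305 genes in all. The letters TATAAA, searched on both strands, stood in 12.5% of LINC, 11.9% of LOC and 12% of all promoters, and CCAAT in 39.3, 43.3 and 35.7%. A run of 3 tandem GGAA repeats, the sequence bound by the fusion protein EWSR1-FLI1 of this tumour, stood in no member promoter and in 0.0623% of all. The palindrome bound by the factor NRF1 stood in none of the LINC, 1.49% of the LOC and 1.36% of all promoters.

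Other noncoding classes were compared by the same counts. Of 144 tested genes with antisense names 25 fell and 22 rose (17.4 and 15.3%). Of 19 snoRNA host genes 10 fell and 2 rose (52.6 and 10.5%), and of 11 named noncoding RNAs outside the members none fell and 6 rose (54.5%). The shares of all tested genes were 32.1% falling and 30.7% rising. Antisense-named genes had a median of 34.7 counts, near that of the members, snoRNA host genes one of 226.7 and the named RNAs one of 656.9. Differences between these classes were not tested.

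The genes nearest the threshold of 10 counts carried little information. LINC00659 and LINC00607 lay just inside it with means of 10.4 and 11.4 counts, and LINC01311 and LINC01569 just outside with 9.92 and 9.58. LOC729970 and LOC100652768 lay inside with 10.1 and 10.2, and LOC100507547 and LOC728323 outside with 9.92 and 9.83. LINC00659 ranged from 4 to 22 counts and LOC729970 from 4 to 19, and their slopes had standard errors of 0.12 and 0.13, so that only steep changes were detectable at this depth.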

How the data were processed

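What the authors deposited are unnormalised read counts, whole numbers listed by gene symbol for the 12 libraries, and each column was matched to its sample by title (0 left unmatched). Per the labels, the kit was Illumina TruSeq stranded mRNA after poly(A) selection, and the submitters' processing notes name hg19, FastQC and STAR. For TruSeq libraries the study's methods name Salmon on the Ensembl GRCh38 transcriptome, summed to genes with tximport, which differs from the hg19 of the notes, so the counting behind this table is not settled and its strand setting is not given in the sources used here. The members and lists were chosen with earlier results of these data known.

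The 12032 genes averaging 10 or more counts were fitted with edgeR 4.0.16 in R 4.3.3 (TMM, glmQLFit, glmQLFTest), with time in h as a number, as 4 groups, and as a test of departure from a line, with Benjamini-Hochberg adjustment of p over all of them. CPM values are divided by TMM-scaled library sizes. A half-life was taken as the negative inverse of the slope and given up to 24 h. The tests were checked on simulated data. The common biological coefficient of variation was 0.0905. Replicates of a time differed by more than sampling noise in all 12 pairs (chi-square per degree of freedom 3.20 to 8.66).

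Same-numbered libraries of different times deviated together (correlations 0.300 to 0.612 over 18 pairs, mean 0.431, against -0.212 over 36 pairs of different numbers), so the numbers, which come from the labels, pair the samples, although the labels do not say what a number shares. The main fits held no term for the number all the same, and fits with it as a block are given as an alternative. At 1 h the block called 5 LINC and 9 LOC genes lower and 4 LOC genes higher, against 1, 1 and 0 in the main fit.

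Genes were named by rule: a chosen list of LINC symbols, many with a product or new name, the steepest 6 falling and 5 rising of each kind that moved alike in all 3 replicates, the highest counts, those at the threshold and those departing from a line. Other members named for their type, neighbour or structure were chosen after their values were seen. Positions come from GENCODE version 44 (GRCh38), matched by symbol, and sequences from RefSeq GRCh38.p14. Neighbours start within 1000 bases. Alternatives were other scalings, filters, the replicate block, DESeq2 1.42.0, fewer times and leaving out each replicate. Figures used matplotlib 3.10.9.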

Additional observations from a re-analysis of the deposited data

How the results depend on the processing

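The slope calls were counted again under 12 other settings. Shares of all tested genes were not counted under them, so these counts of members have no background beside them. With library totals 7 LOC genes rose, and the medians were -0.0256 for LINC and -0.0396 for LOC genes. With GAPDH plus ACTB scaling 31 LINC and 52 LOC genes fell and 2 and 2 rose, with medians of -0.1229 and -0.1373, and at 4 h 28 and 51 were lower and 2 and 2 higher. That scaling shifted the median of all tested genes by -0.1377 per h. With a mean of at least 30 counts, which fewer members reach, 7 LINC and 14 LOC genes fell, 12 LOC genes rose, 0 LINC genes were lower at 1 h, and at 4 h 14 LOC genes were lower and 9 higher. With library totals 9 LOC genes were higher at 4 h. With every gene that had a count, 2 LINC genes were lower at 1 h and 1 LINC gene departed from a line. With DESeq2's Wald test 2 LINC genes were lower at 1 h.

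With the replicate block 5 LINC and 9 LOC genes were lower and 4 LOC genes higher at 1 h, 16 LINC and 22 LOC genes were higher at 4 h, and 4 LINC and 3 LOC genes departed from a line. For the slope the block gave 11 LINC and 29 LOC genes falling and 14 and 20 rising, with all called members of the unblocked fit among them, and of the named members it changed the call of LOC90784 alone.

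From 1, 2 and 4 h only, 6 LINC and 13 LOC genes fell and 8 LOC genes rose, with medians of 0.0329 and 0.0193. From 0, 1 and 2 h only, 7 and 9 fell and 3 and 3 rose, with medians of -0.0185 and -0.0115. Leaving out 1 replicate gave 7 to 10 LINC and 15 to 21 LOC genes falling, 7 to 11 and 8 to 12 rising, LINC medians of 0.0016 to 0.0239 and LOC medians of -0.0112 to 0.0018. At 1 h it gave 0 to 1 LINC and 0 to 1 LOC genes lower, and at 4 h 5 to 9 LINC and 7 to 14 LOC genes higher. For departure from a line it gave 0 to 1 LOC genes.

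Some slopes changed sign. With library totals they were -0.0282 for LINC00998, -0.0020 for LINC00152, -0.0377 for LINC01116 and -0.0230 for LOC729970. With GAPDH plus ACTB scaling they were -0.1266 for LINC00998, -0.0892 for LINC00094, -0.0994 for LINC00152, -0.0628 for LINC00467, -0.0733 for LINC00665, -0.0274 for LINC00674, -0.1364 for LINC01116, -0.0938 for LOC100129034, -0.0022 for LOC150776 and -0.1184 for LOC729970. From 0, 1 and 2 h only they were 0.0238 for LINC00116, -0.0086 for LINC00998, -0.0173 for LINC00094, -0.0158 for LINC00467, -0.0338 for LINC01116 and 0.1692 for LINC00659. From 1, 2 and 4 h only they were -0.0046 for LINC00152 and 0.0695 for LINC01578. LINC01116 was at -0.0007 with every gene that had a count. Leaving out 1 replicate put LINC01116 between -0.0070 and 0.0067, LINC00659 between -0.1483 and 0.1160, LOC729970 between -0.1872 and 0.1778 and LOC100652768 between -0.0612 and 0.0198. The causes were not tested. For the 25 members with a mean below 13 counts the standard error of the slope ran from 0.0631 to 0.152 with a median of 0.0963, which limits the changes detectable at this depth.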
